A study of Mus musculus with 24 samples.

Results

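The 36 genes described here encode the machinery of glycolysis and of the pentose phosphate pathway: 3 glucose transporters and 2 lactate transporters, 11 enzymes and regulators of upper glycolysis from hexokinase to aldolase, the gluconeogenic phosphatase Fbp1, 9 genes of lower glycolysis from triose phosphate isomerase to lactate dehydrogenase, Bpgm of red cells included, 3 genes of pyruvate dehydrogenase and its kinases, and 7 pentose phosphate enzymes. They were taken by symbol, and all 36 were found among the 23361 gene rows of the deposited table. Glycolysis splits glucose into pyruvate and yields ATP, and lactate dehydrogenase turns pyruvate into lactate, which monocarboxylate transporters carry across the membrane. The pentose phosphate pathway branches off at the first phosphorylated sugar: its oxidative arm makes NADPH, and its non-oxidative arm makes ribose phosphate for nucleotides and returns carbon to glycolysis. Neutrophils and macrophages are known for strong glycolysis and for spending NADPH on the oxidative burst, and dividing leukaemia cells draw on both pathways for ATP and nucleotides.

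RNA was sequenced from acute myeloid leukaemia (AML) cells from the spleens of mice of the cross (FVB/n X C57/BL/6J) F1, and every group carried the genotype NRASG12V/Mll-AF9, an activated RAS protein together with a fusion of the histone methyltransferase MLL. Cells were sorted on the myeloid surface protein Mac-1, the stem cell factor receptor Kit and the surface protein Sca-1. The cells low in Mac-1 came as MacLowKit+Sca1+ (4 libraries), MacLowKit+Sca1- (5 libraries) and MacLowKit-Sca1- (5 libraries), written below without the Mac-low prefix, and were joined by 5 libraries each of MacHigh and unsorted cells. The title of the study speaks of a population enriched for leukaemia stem cells, and the comparisons ask how the genes of these pathways differ between it and the other sorted cells. No untreated or non-leukaemic mice are among the samples. The promoter that drives each transgene, the age of the mice and the number of animals are not given in the sources used here, so p-values measure the spread between these libraries only.

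Values are FPKM, fragments scaled to the length of the gene and to the mapped fragments of the library, so levels of different genes can be set side by side. The table gives no read counts, the depth of each library is unknown, and the FPKM sum ran between 446000 and 644400 over the 24 libraries. The genes of the sorted proteins followed the labels in the main: Itgam (Mac-1) averaged 62.0 FPKM in Kit+Sca1+ cells, 267 FPKM in both other Mac-low groups and 633 FPKM in MacHigh cells. Kit averaged 34.3, 39.8, 0.668 and 5.79 FPKM in the same groups, and Ly6a (Sca-1) 7.67, 0.916, 1.02 and 2.35 FPKM. Markers of other spleen cells were not evenly spread. The 11 measured markers of red pulp macrophages summed to between 688 and 1831 FPKM in Kit+Sca1+ libraries, 78.6 to 109.8 in Kit+Sca1-, 38.9 to 97.2 in Kit-Sca1- and 332 to 678 in MacHigh libraries, and the 7 dendritic cell markers to between 297 and 560.4, 11.9 and 58.7, 16.3 and 45.5, and 114 and 342 FPKM. Of the defining macrophage genes, Cd5l averaged 67.3 FPKM and Spic 53.7 FPKM in Kit+Sca1+ cells, against 2.98 and 9.22 FPKM in MacHigh cells. All 11 macrophage markers were higher in Kit+Sca1+ than in Kit+Sca1- cells. Against MacHigh cells 7 of them were higher, 1 was lower and 3 were not called. The 7 natural killer cell markers summed to between 27.4 and 101.5 FPKM in Kit+Sca1+, 7.74 and 21.3 in Kit+Sca1-, 42.7 and 181 in Kit-Sca1- and 23.6 and 51.1 FPKM in MacHigh libraries. Against MacHigh cells 5 were higher and 1 lower in Kit+Sca1+, and 6 were higher and 1 lower in Kit-Sca1- cells. The 6 mature neutrophil markers summed to between 7454 and 23582, 4997 and 31738, 11857 and 29202, and 12190 and 46896 FPKM in the same groups. S100a8 was among these markers and had no estimate in comparisons with Kit+Sca1- cells, for the reason given further below. The Kit+Sca1- sum holds next to nothing of S100a8, so its range cannot be set beside those of the other groups. In Kit+Sca1+ cells 4 of the 6 were below MacHigh, and all 5 with an estimate, S100a8 left out, were below Kit+Sca1- cells. The part of these cells in the Kit+Sca1+ levels below was not tested, and in bulk RNA fewer cells of a type and less RNA per cell cannot be told apart.

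Together the genes of both pathways took the largest share of the FPKM sum in Kit+Sca1- cells and the smallest in Kit+Sca1+ cells. The 36 genes together made up 0.460% to 0.473% of the FPKM sum in the Kit+Sca1+ libraries, 0.857% to 0.998% in Kit+Sca1-, 0.541% to 0.748% in Kit-Sca1- and 0.503% to 0.609% in MacHigh libraries. The Kit+Sca1+ libraries lay below all libraries of the other sorted groups in this share, and the Kit+Sca1- libraries lay above them all. Among the sorted groups, 16 of the 36 genes had their highest mean in Kit+Sca1- cells and 11 in Kit-Sca1- cells, while Kit+Sca1+ cells held the highest mean of 3 genes and MacHigh cells that of 6. Of all rows tested, 31.6% had their highest mean in Kit+Sca1-, 21.1% in Kit-Sca1-, 21.2% in Kit+Sca1+ and 26.1% in MacHigh cells. The lowest mean was in Kit+Sca1+ cells for 19 of the 36 genes, and 23.1% of all rows tested had their lowest mean there.

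Differences were tested with limma on log2(FPKM + 1), and a gene was called at an adjusted p under 0.05. A log2 difference on this scale understates the change of genes with low FPKM. Among the 4 sorted groups 31 of the 36 genes passed limma's F test, as did 83.2% of all rows tested; Pfkl, Gapdh, Eno1, Taldo1 and Bpgm did not. Against MacHigh cells, 6 of the 36 genes were higher and 13 lower in Kit+Sca1+ cells, where 46.0% of all rows tested were called (23.6% higher, 22.4% lower). In Kit+Sca1- cells 16 were higher and 6 lower than in MacHigh, with 62.8% of all rows called (32.5% higher, 30.3% lower). In Kit-Sca1- cells 9 were higher and 4 lower than in MacHigh, with 50.8% of all rows called (24.5% higher, 26.2% lower). Between the Mac-low groups, 7 genes were higher and 22 lower in Kit+Sca1+ than in Kit+Sca1- cells, with 55.2% of all rows called (26.8% higher, 28.5% lower). In Kit+Sca1+ against Kit-Sca1- cells 6 were higher and 17 lower, with 45.2% of all rows called (21.8% higher, 23.3% lower). In Kit+Sca1- against Kit-Sca1- cells 12 were higher and 9 lower, with 50.2% of all rows called (2780 rows higher, and 3045 rows or 26.3% lower). With every library scaled to the same FPKM sum, the last of these splits became 15 higher and 7 lower. Of the 36 genes, 52.8%, 61.1% and 36.1% were thus called in the 3 comparisons with MacHigh, which lay above, near and below the share of all rows. Between Kit+Sca1+ and Kit+Sca1- cells 80.6% of them were called, and 22 of 36 were lower. The libraries of both groups did not overlap for 15 genes in Kit+Sca1+ against MacHigh (37.5% of all rows), 19 in Kit+Sca1- against MacHigh (45.0%) and 8 in Kit-Sca1- against MacHigh (35.7%). Between the Mac-low groups this held for 24 genes in Kit+Sca1+ against Kit+Sca1- (39.4% of all rows), 17 in Kit+Sca1+ against Kit-Sca1- (33.8%) and 17 in Kit+Sca1- against Kit-Sca1- (28.8%). The median log2 difference of the 36 genes was -0.75 in Kit+Sca1+ against Kit+Sca1- cells, against -0.02 over all rows.

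**Figure D1:**
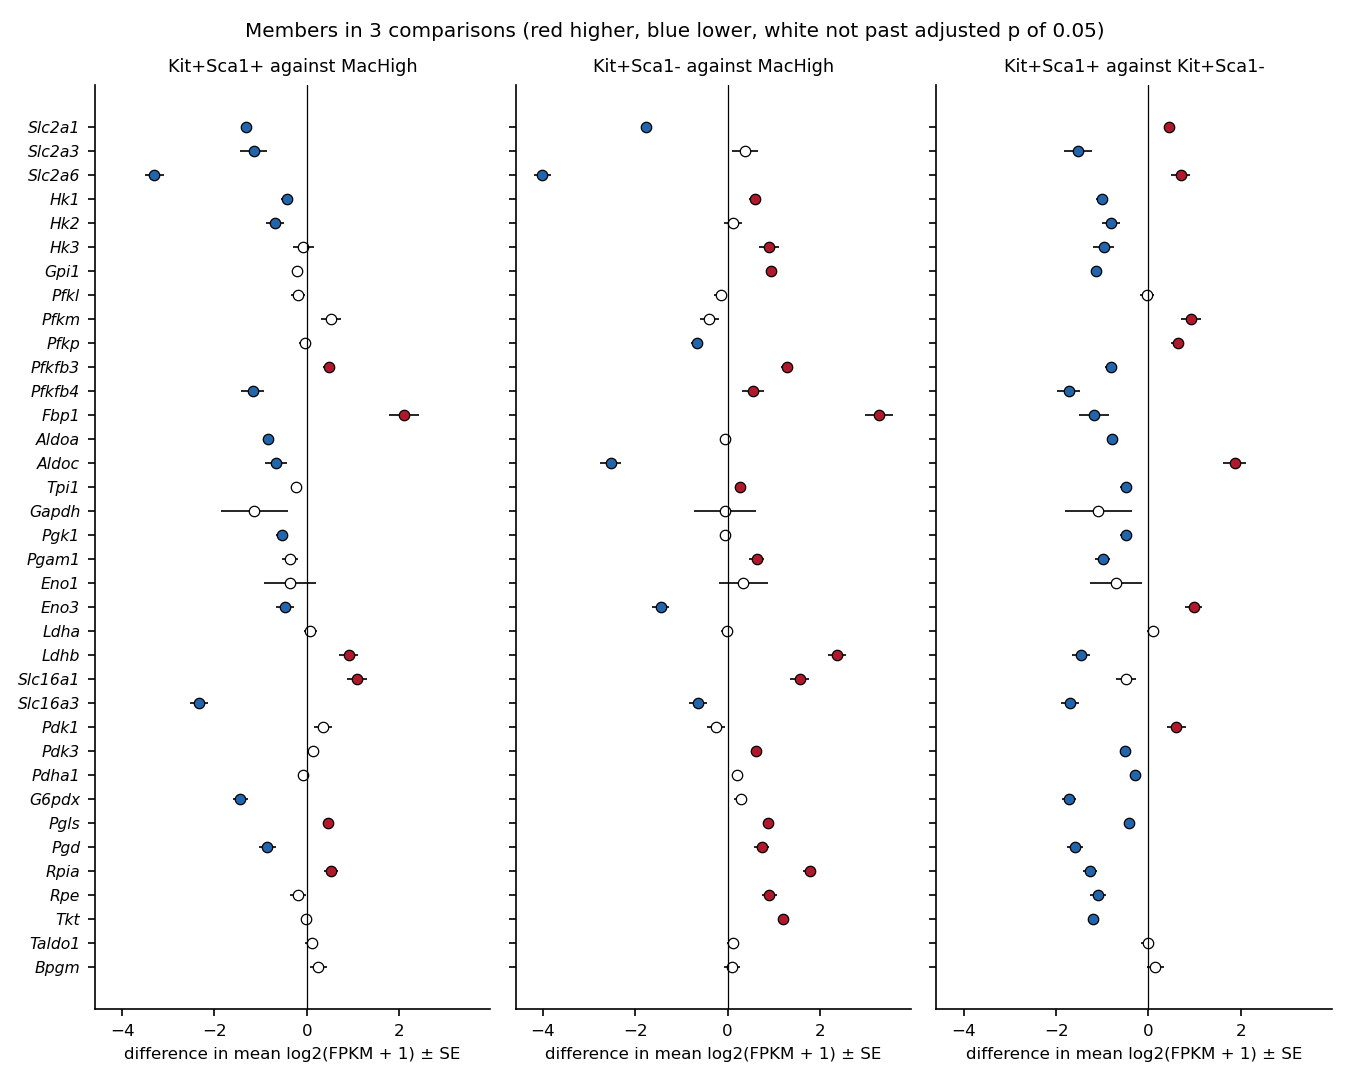
Differences in mean log2(FPKM + 1) with their standard errors for the 36 genes, ordered along the pathway, in Kit+Sca1+ against MacHigh, Kit+Sca1- against MacHigh and Kit+Sca1+ against Kit+Sca1- cells. Filled points passed an adjusted p of 0.05; in the right panel 22 of the 36 genes lie to the left of 0 and are filled, and 7 lie to the right.

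MacHigh cells had the highest mean of Slc2a1, Slc2a6 and Slc16a3 among the sorted groups, and the lowest of Slc16a1. Slc2a1, the widely expressed glucose transporter GLUT1, had 15.1, 15.4, 14.9 and 14.9 FPKM in the Kit+Sca1+ libraries, between 9.04 and 12.5 (median 11.1) in Kit+Sca1-, between 26.8 and 28.1 (median 27.6) in Kit-Sca1- and between 32.5 and 47.7 (median 38.0) in MacHigh libraries. The 4 groups did not overlap. It was lower in each Mac-low group than in MacHigh, by -1.32 (SE 0.10, adjusted p = 3.54e-10) in Kit+Sca1+, by -1.76 (SE 0.09, adjusted p = 3.53e-13) in Kit+Sca1- and by -0.49 (SE 0.09, adjusted p = 0.000143) in Kit-Sca1- cells.

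Slc2a6, which encodes the lysosomal hexose transporter GLUT6 known from activated macrophages, had the steepest gradient of the transporters. It read 6.57, 7.17, 3.79 and 5.59 FPKM in Kit+Sca1+ libraries and between 1.37 and 5.19 FPKM in Kit+Sca1- libraries, against 38.2 to 55.2 FPKM in Kit-Sca1- and 55.4 to 82.4 FPKM in MacHigh libraries. Both Kit+ groups lay far below both other groups, with log2 differences from MacHigh of -3.31 (SE 0.20, adjusted p = 2.02e-11) and -4.01 (SE 0.19, adjusted p = 8.25e-14). Kit-Sca1- and MacHigh cells differed by -0.45 (adjusted p = 0.0564), and by -0.41 with an adjusted p of 0.0320 when the sample name prefix was a block in the fit. Slc2a3, the high-affinity transporter GLUT3, went a different way: it had between 6.41 and 13.3 FPKM in Kit+Sca1+ libraries, against 11.9 to 60.8 in Kit+Sca1-, 23.4 to 48.8 in Kit-Sca1- and 18.5 to 30.6 FPKM in MacHigh libraries. It was lower in Kit+Sca1+ than in all other sorted groups, by -1.15 (SE 0.30, adjusted p = 0.00316) against MacHigh.

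Slc16a3, the lactate exporter MCT4, read 8.47, 10.2, 17.8 and 16.2 FPKM in Kit+Sca1+ libraries, between 32.0 and 58.4 in Kit+Sca1-, between 31.8 and 58.5 in Kit-Sca1- and between 59.8 and 77.7 FPKM in MacHigh libraries. Kit+Sca1+ lay below and MacHigh above every other sorted library. The log2 difference from MacHigh was -2.33 (SE 0.20, adjusted p = 3.03e-09) in Kit+Sca1+, -0.67 (SE 0.19, adjusted p = 0.00530) in Kit-Sca1- and -0.64 (SE 0.19, adjusted p = 0.00507) in Kit+Sca1- cells, and with equal FPKM sums the last of these was -0.31 (adjusted p = 0.0942). Slc16a1, the transporter MCT1 that carries lactate and pyruvate both ways, was the reverse: 17.2, 14.9, 11.8 and 13.0 FPKM in Kit+Sca1+ libraries, 12.3 to 29.1 in Kit+Sca1- and 16.9 to 31.0 in Kit-Sca1-, against 5.29 to 7.42 FPKM in MacHigh libraries. All 14 Mac-low libraries lay above all MacHigh libraries, with log2 differences of 1.08 (SE 0.22, adjusted p = 0.000288), 1.57 (SE 0.20, adjusted p = 6.32e-07) and 1.76 (SE 0.20, adjusted p = 5.42e-07) in the 3 groups. The ratio of Slc16a1 to Slc16a3 within a library sets both genes under the same scaling: its mean, as a difference in log2(FPKM + 1), was 0.15 in Kit+Sca1+, -1.06 in Kit+Sca1- and -0.85 in Kit-Sca1- cells, against -3.27 in MacHigh cells. The ranges did not overlap with MacHigh in any of the 3, and each exact two-sided permutation test gave p = 0.00794, the smallest that 5 against 5 or 4 against 5 libraries allow (adjusted p = 0.0238 over 72 ratio tests).

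The stretches before the start sites of these 3 transporter genes are shown because the genes went opposite ways: Slc16a1 was higher, and Slc16a3 and Slc2a1 lower, in each Mac-low group than in MacHigh. They run from 250 bases before the start to the base before it, or for Slc2a1 to 5 bases before it, in RefSeq's GRCm38.p6, on the + strand of chr3:104638414-104638663 (Slc16a1), chr11:120948817-120949066 (Slc16a3) and chr4:119108495-119108740 (Slc2a1). The start is the one in RefSeq's promoter table; for Slc16a3 it is an internal start, since the annotated gene begins at position 120948484, and the stretch shown lies within the gene. Capitals mark ACGTG, the core that hypoxia-inducible factors bind, and TGACNNNGC, the core of the antioxidant response element, on either strand; where they overlap, as in Slc16a1, they form a single run.
Slc16a1: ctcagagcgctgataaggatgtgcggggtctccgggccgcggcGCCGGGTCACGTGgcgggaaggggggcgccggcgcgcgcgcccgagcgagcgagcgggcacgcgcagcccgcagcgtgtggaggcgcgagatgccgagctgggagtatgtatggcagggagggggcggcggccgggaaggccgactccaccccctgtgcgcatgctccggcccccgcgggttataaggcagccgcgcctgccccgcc
Slc16a3: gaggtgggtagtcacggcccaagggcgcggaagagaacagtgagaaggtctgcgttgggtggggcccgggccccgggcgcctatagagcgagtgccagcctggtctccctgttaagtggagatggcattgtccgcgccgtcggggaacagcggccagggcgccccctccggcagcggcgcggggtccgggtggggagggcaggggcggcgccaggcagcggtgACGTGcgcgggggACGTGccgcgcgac
Slc2a1: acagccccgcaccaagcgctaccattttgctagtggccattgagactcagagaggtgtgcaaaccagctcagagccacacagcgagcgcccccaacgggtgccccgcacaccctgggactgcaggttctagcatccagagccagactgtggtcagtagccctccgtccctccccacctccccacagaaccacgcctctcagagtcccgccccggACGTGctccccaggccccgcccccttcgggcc
ACGTG was in 12 of the 35 genes for which RefSeq's table has a promoter (31.2% of their 48 promoters), beside 16.6% of all 32851 promoters of the same length. TGACNNNGC was in 5 of the 35 genes (10.4% of the 48 promoters, 10.2% of all promoters). In Slc16a1 the ACGTG lies within CACGTG, known as an E-box, which reads the same on either strand. CACGTG was in 4 of the 35 genes (8.33% of the 48 promoters, 6.02% of all promoters). GGGCGG, the GC box, was in 26 of them (60.4% of the 48 promoters, 32.7% of all promoters). The promoters of the 35 genes were richer in G and C than all promoters, with medians of 59.4% and 52.4%. A match is a stretch of letters and was not tested for binding. The transcription factor gene Hif1a averaged 19.1 FPKM in Kit+Sca1+ cells, 21.7 in Kit+Sca1-, 21.5 in Kit-Sca1- and 26.5 in MacHigh cells, and was lower than in MacHigh in all 3 Mac-low groups (log2 difference -0.45, -0.28 and -0.29, highest adjusted p = 0.00251).

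**Figure D2:**
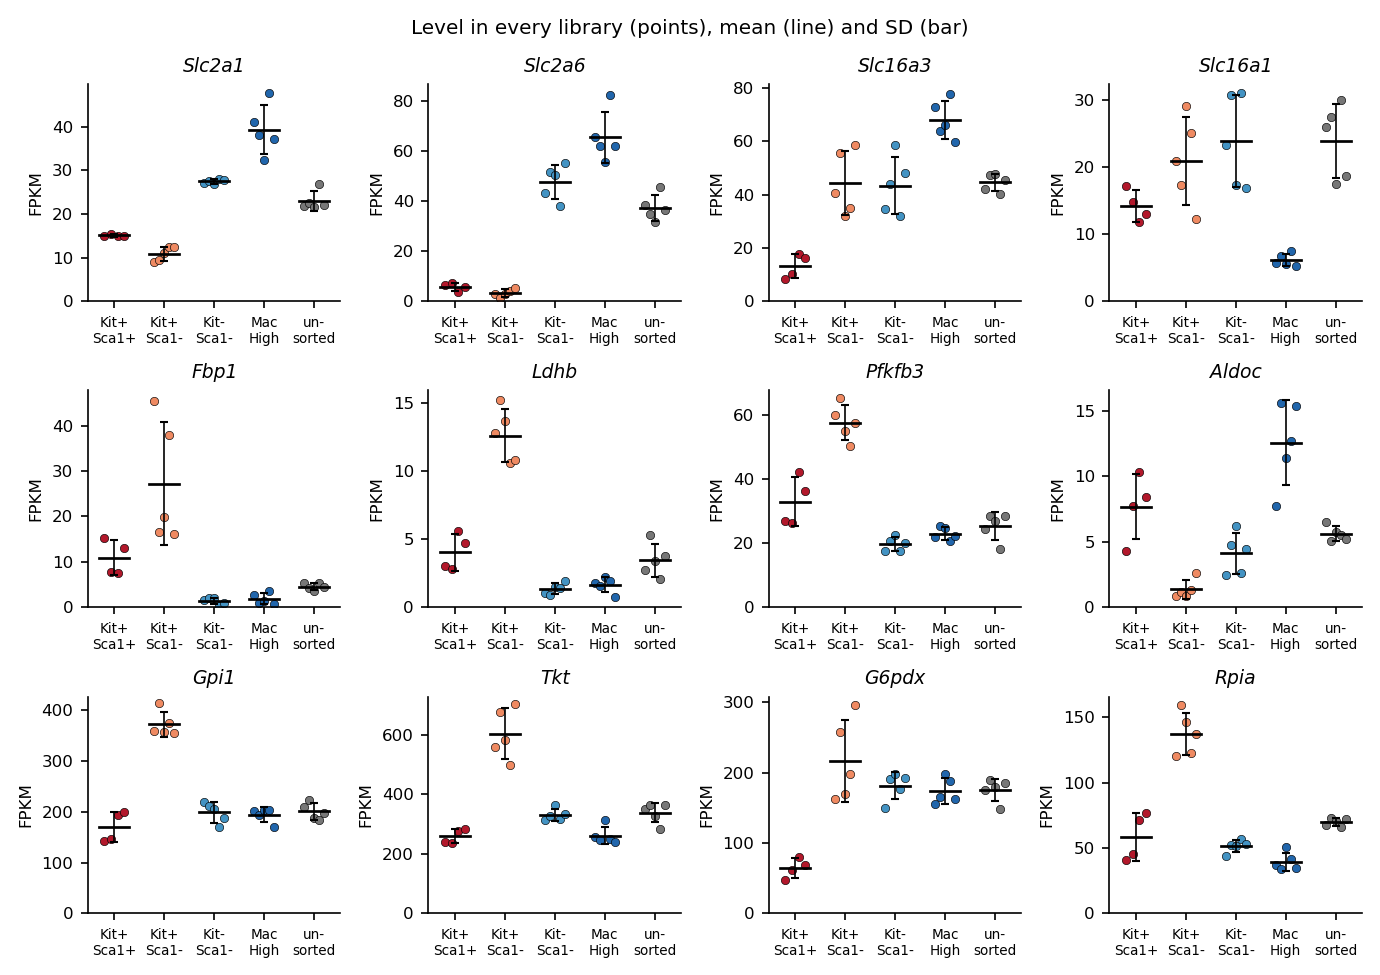
FPKM of 12 of the genes in each of the 24 libraries (points), with group mean (line) and SD (bar); groups from left to right are Kit+Sca1+, Kit+Sca1-, Kit-Sca1-, MacHigh and unsorted cells. Slc2a6 lies between 1.37 and 7.17 FPKM in both Kit+ groups and between 38.2 and 82.4 in Kit-Sca1- and MacHigh cells, Slc16a1 is lowest in MacHigh, and Fbp1, Ldhb, Gpi1, Tkt and Rpia are highest in Kit+Sca1- cells.

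Within upper glycolysis, genes of the entry step, the isomerase and a regulator of phosphofructokinase were high in Kit+Sca1- cells, while the part as a whole was mixed. Of its 11 genes, 5 were higher and 2 lower in Kit+Sca1- than in MacHigh cells (median log2 difference 0.12), beside 62.8% of all rows called. Against Kit-Sca1- cells 4 were higher and 4 lower in Kit+Sca1- cells (50.2% of all rows called). In Kit+Sca1+ against Kit+Sca1- cells 3 were higher and 7 lower (55.2% of all rows called). Hk3, a hexokinase of myeloid cells, made up most hexokinase message in all sorted groups, between 65.1% and 78.8% of the summed FPKM of Hk1, Hk2 and Hk3. It read 82.6, 135, 178 and 172 FPKM in Kit+Sca1+ libraries, 185 to 358 in Kit+Sca1-, 143 to 272 in Kit-Sca1- and 107 to 169.9 FPKM in MacHigh libraries. The Kit+Sca1- libraries lay above all MacHigh libraries (log2 difference 0.90, SE 0.21, adjusted p = 0.000787), and Kit+Sca1+ and MacHigh cells overlapped (-0.08, adjusted p = 0.806). Between Kit+Sca1- and Kit-Sca1- cells, Hk3 and Hk2 passed with the prefix block and not without it (0.44 and 0.23, adjusted p = 0.00179 and 0.0241). Hk1, the general housekeeping hexokinase, averaged 29.8 ± 4.15 FPKM in Kit+Sca1+ cells, 60.7 ± 3.96 in Kit+Sca1-, 42.2 ± 5.22 in Kit-Sca1- and 40.2 ± 3.17 FPKM in MacHigh cells (SD, n = 4, 5, 5 and 5). It was higher in Kit+Sca1- than in MacHigh (0.58, SE 0.12, adjusted p = 0.000224) and lower in Kit+Sca1+ than in Kit+Sca1- (-1.01, SE 0.13, adjusted p = 6.83e-07).

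Gpi1, the isomerase that passes glucose phosphate on to phosphofructokinase, had 142, 146, 194 and 199 FPKM in Kit+Sca1+ libraries and 356 to 414 FPKM in Kit+Sca1- libraries, against 170.4 to 219 in Kit-Sca1- and 170.4 to 204 FPKM in MacHigh libraries. The Kit+Sca1- libraries stood alone, with a log2 difference of 0.93 (SE 0.10, adjusted p = 2.10e-08) from MacHigh and 0.91 (SE 0.10, adjusted p = 8.66e-08) from Kit-Sca1- cells. Of the 50-base windows of its transcripts, 18.6% also occur in other annotated genes. Kit+Sca1+ and Kit-Sca1- cells differed by -0.23 (adjusted p = 0.0677), and by -0.25 with an adjusted p of 0.0446 with the prefix block. Pfkfb3, whose product makes the fructose bisphosphate that switches phosphofructokinase on, read 27.0, 26.2, 42.1 and 36.2 FPKM in Kit+Sca1+ and 50.4 to 65.3 in Kit+Sca1-, against 17.4 to 22.5 in Kit-Sca1- and 20.6 to 25.5 FPKM in MacHigh libraries. It was higher in Kit+Sca1- than in MacHigh by 1.29 (SE 0.13, adjusted p = 8.32e-09), and the log2 difference of Kit+Sca1+ from MacHigh was 0.48 (SE 0.13, adjusted p = 0.00576), and 0.44 with an adjusted p of 0.0872 without the libraries of the prefixes L and R. Pfkfb4, its relative, averaged 13.0 ± 4.99 FPKM in Kit+Sca1+ cells, 45.3 ± 15.4 in Kit+Sca1-, 20.2 ± 6.49 in Kit-Sca1- and 29.3 ± 4.14 FPKM in MacHigh cells, so that the log2 ratio of Pfkfb4 to Pfkfb3 was -1.32 in Kit+Sca1+, against 0.33 in MacHigh cells (exact permutation p = 0.00794, adjusted p = 0.0238). With the prefix block, Pfkfb3 (-0.26, adjusted p = 0.0224) and Pfkfb4 (-0.58, adjusted p = 0.0205) were lower in Kit-Sca1- cells than in MacHigh, and Pfkfb4 was lower in Kit+Sca1+ than in Kit-Sca1- cells (-0.68, adjusted p = 0.0125).

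Of the phosphofructokinase subunits, Pfkp and Pfkm were lowest in Kit+Sca1- cells. Pfkl, the liver-type subunit, read 33.7, 48.6, 43.3 and 46.2 FPKM in Kit+Sca1+, 31.6 to 58.3 in Kit+Sca1-, 41.5 to 63.1 in Kit-Sca1- and 34.9 to 55.8 FPKM in MacHigh libraries, and the groups overlapped. It passed no test among the sorted groups (F test, adjusted p = 0.181); with the prefix block it was lower in Kit+Sca1+ and in Kit+Sca1- than in Kit-Sca1- cells, by -0.26 in each (adjusted p = 0.00631 and 0.00430). Pfkp, the platelet-type subunit, averaged 46.1 FPKM in Kit+Sca1+ cells, 29.7 in Kit+Sca1-, 55.4 in Kit-Sca1- and 48.2 in MacHigh cells, and was lower in Kit+Sca1- than in MacHigh (-0.67, SE 0.13, adjusted p = 8.11e-05) and than in Kit-Sca1- cells (-0.88, SE 0.13, adjusted p = 4.86e-06). Pfkm, the muscle-type subunit, lay between 4.94 and 10.1 FPKM in Kit+Sca1+, 2.56 and 4.12 in Kit+Sca1-, 5.59 and 7.65 in Kit-Sca1- and 3.73 and 5.23 FPKM in MacHigh libraries. It was higher in Kit+Sca1+ than in Kit+Sca1- cells (0.93, SE 0.22, adjusted p = 0.00112) and lower in Kit+Sca1- than in Kit-Sca1- cells (-0.85, SE 0.21, adjusted p = 0.00176). With the prefix block Pfkm was also higher than in MacHigh in Kit+Sca1+ (0.57, adjusted p = 0.0325) and in Kit-Sca1- cells (0.49, adjusted p = 0.0410).

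Aldoa, the main aldolase, was lower in Kit+Sca1+ cells than in each other sorted group, as was Hk1. It had 232, 284, 279 and 305 FPKM in Kit+Sca1+ libraries, against 410.2 to 534 in Kit+Sca1-, 507 to 585 in Kit-Sca1- and 456 to 530.0 FPKM in MacHigh libraries. All 4 Kit+Sca1+ libraries lay below all 15 others, with log2 differences of -0.85 (SE 0.09, adjusted p = 7.18e-08) from MacHigh, -0.80 (SE 0.09, adjusted p = 1.08e-07) from Kit+Sca1- and -1.03 (SE 0.09, adjusted p = 3.01e-09) from Kit-Sca1- cells. With the prefix block it was also higher in Kit-Sca1- than in MacHigh cells (0.16, adjusted p = 0.0241). Aldoc, another aldolase at far lower level, read 4.29, 7.73, 10.3 and 8.39 FPKM in Kit+Sca1+ and 0.854 to 2.63 in Kit+Sca1-, against 2.44 to 6.22 in Kit-Sca1- and 7.74 to 15.5 FPKM in MacHigh libraries. It was lower in Kit+Sca1- (-2.53, SE 0.23, adjusted p = 2.09e-09) and in Kit-Sca1- (-1.43, SE 0.23, adjusted p = 2.39e-05) than in MacHigh cells. The ratio of Aldoc to Aldoa was lower in both as well, with mean log2 ratios of -7.70 and -6.84, against -5.23 in MacHigh cells (exact permutation p = 0.00794, adjusted p = 0.0238 each). Aldoc was also lower in Kit+Sca1+ than in MacHigh cells (-0.66, SE 0.24, adjusted p = 0.0295), a call that 7 of the alternative fits lost.

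Fbp1, the gluconeogenic phosphatase that runs against phosphofructokinase, was high in both Kit+ groups. It read 15.3, 7.80, 7.53 and 13.0 FPKM in Kit+Sca1+ and 45.5, 16.5, 19.9, 38.0 and 16.2 FPKM in Kit+Sca1- libraries, against 0.317 to 1.97 in Kit-Sca1- and 0.766 to 3.54 FPKM in MacHigh libraries. Every Kit+ library lay above every Kit- and MacHigh library, and replicates 1 and 4 of Kit+Sca1- stood above the other Kit+ libraries. The log2 difference from MacHigh was 2.11 (SE 0.33, adjusted p = 1.60e-05) in Kit+Sca1+ and 3.28 (SE 0.31, adjusted p = 4.32e-09) in Kit+Sca1- cells.

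Lower glycolysis had its highest sum in Kit-Sca1- cells. Summed over its 9 genes, the level ran between 459.6 and 563 FPKM in Kit+Sca1+, 507 and 686 in Kit+Sca1-, 637 and 938 in Kit-Sca1- and 499 and 637 FPKM in MacHigh libraries, and the Kit-Sca1- range met those of Kit+Sca1- and MacHigh at its lower end. Ldha and Tpi1 made up most of this sum in each group. Gene by gene, 4 of the 9 were higher and 1 lower in Kit-Sca1- than in MacHigh cells, where 50.8% of all rows were called. Ldha, the lactate dehydrogenase subunit that favours lactate and the most abundant gene of the 9, had 322, 339, 268 and 281 FPKM in Kit+Sca1+ and 239 to 322 in Kit+Sca1-, against 351 to 513 in Kit-Sca1- and 258 to 353 FPKM in MacHigh libraries. It was higher in Kit-Sca1- than in MacHigh (0.61, SE 0.13, adjusted p = 0.000400), while the other 3 groups overlapped. Tpi1, the triose phosphate isomerase, averaged 167 ± 17.0 FPKM in Kit+Sca1+ cells, 236 ± 30.01 in Kit+Sca1-, 277 ± 44.2 in Kit-Sca1- and 196 ± 19.4 FPKM in MacHigh cells, and was higher in Kit-Sca1- than in MacHigh (0.49, SE 0.11, adjusted p = 0.000717) and lower in Kit+Sca1+ than in Kit-Sca1- (-0.72, SE 0.12, adjusted p = 2.57e-05). Kit+Sca1- and Kit-Sca1- cells differed in Tpi1 by -0.23 (adjusted p = 0.0868), and by -0.25 with an adjusted p of 0.00544 with the prefix block.

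Ldhb, the subunit that favours the return of lactate to pyruvate, behaved apart from Ldha. It read 3.01, 2.82, 5.62 and 4.73 FPKM in Kit+Sca1+ and 10.6 to 15.2 in Kit+Sca1-, against 0.922 to 1.91 in Kit-Sca1- and 0.758 to 2.26 FPKM in MacHigh libraries. Kit+Sca1- lay above Kit+Sca1+, and Kit+Sca1+ above the rest, without overlap. The log2 difference from MacHigh was 0.91 (SE 0.20, adjusted p = 0.000868) in Kit+Sca1+ and 2.37 (SE 0.19, adjusted p = 3.91e-10) in Kit+Sca1- cells. Ldhb still made up little of the lactate dehydrogenase message, 0.826% to 2.06% in Kit+Sca1+ and 3.20% to 5.99% in Kit+Sca1-, against 0.279% to 0.854% in MacHigh libraries. The log2 ratio of Ldhb to Ldha was -4.38 in Kit+Sca1- cells, against -6.78 in MacHigh cells (exact permutation p = 0.00794, adjusted p = 0.0238). Eno3, the muscle-type enolase, ran the other way, with 13.5, 16.4, 13.1 and 18.7 FPKM in Kit+Sca1+ and 5.69 to 9.11 in Kit+Sca1-, against 11.7 to 22.3 in Kit-Sca1- and 17.9 to 29.6 FPKM in MacHigh libraries. It was lower in Kit+Sca1- (-1.45, SE 0.17, adjusted p = 1.97e-07) and in Kit-Sca1- (-0.56, SE 0.17, adjusted p = 0.0102) than in MacHigh cells. Eno3 was also lower in Kit+Sca1+ than in MacHigh cells (-0.47, SE 0.19, adjusted p = 0.0419), a call that 7 of the alternative fits lost.

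**Figure D3:**
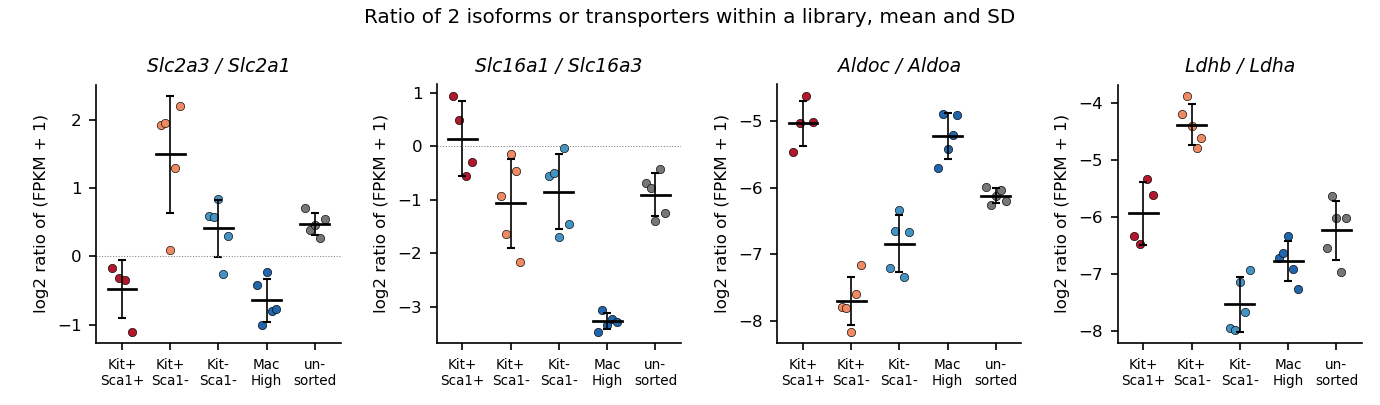
Log2 ratio of (FPKM + 1) between 2 genes of the same step within each library (points), with group mean and SD, for the glucose transporters, the lactate transporters, the aldolases and the lactate dehydrogenase subunits. The ratio of Slc16a1 to Slc16a3 averages -3.27 in MacHigh cells and lies above all MacHigh libraries in every other group, and the ratio of Ldhb to Ldha is highest in Kit+Sca1- cells at -4.38.

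Of the 72 tests of 12 such ratios, 36 passed an adjusted p of 0.05 and 27 had groups that did not overlap. Among the glucose transporters, the log2 ratio of Slc2a3 to Slc2a1 was 1.49 in Kit+Sca1- and -0.48 in Kit+Sca1+ cells, against -0.64 in MacHigh cells, and Kit+Sca1- differed from MacHigh with an exact permutation p of 0.00794 (adjusted p = 0.0238). Slc2a3 thus made up 46.0% to 78.4% of the summed FPKM of the 3 glucose transporters in Kit+Sca1- libraries, against 15.6% to 23.9% in MacHigh libraries, where Slc2a6 held 47.8% to 52.5%. Among the hexokinases the mix varied less: of the 12 tests of Hk2 and Hk3 against Hk1, 2 passed the threshold, Hk2 against Hk1 in Kit+Sca1- (log2 ratio -1.15, against -0.68 in MacHigh; exact permutation p = 0.0159, adjusted p = 0.0394) and Hk3 against Hk1 in Kit-Sca1- (2.26, against 1.81 in MacHigh; exact permutation p = 0.0238, adjusted p = 0.0476).

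Some genes of lower glycolysis had low FPKM for enzymes that every cell uses, and their rows share sequence with other annotated genes. The share of 50-base windows of their transcripts that also occur in another gene was 68.0% for Pgk1, 58.4% for Gapdh (in 218 other genes, 213 of them pseudogenes), 49.5% for Eno1, 41.5% for Pgam1 and 21.0% for Ldhb, and 0 for most of the 36 genes. How such fragments were counted is not given in the sources used here, so the levels of these genes are uncertain. Pgk1, phosphoglycerate kinase, averaged 11.5 ± 0.834 FPKM in Kit+Sca1+ cells, 16.7 ± 3.29 in Kit+Sca1-, 23.99 ± 3.36 in Kit-Sca1- and 17.2 ± 2.47 FPKM in MacHigh cells, and was lower in Kit+Sca1+ (-0.53, SE 0.13, adjusted p = 0.00203) and higher in Kit-Sca1- (0.46, SE 0.12, adjusted p = 0.00362) than in MacHigh. Pgam1, phosphoglycerate mutase, averaged 11.8 ± 2.41, 24.6 ± 4.99, 28.5 ± 6.10 and 15.5 ± 2.74 FPKM in the same groups, and was higher in Kit+Sca1- (0.63, SE 0.16, adjusted p = 0.00175) and in Kit-Sca1- (0.83, SE 0.16, adjusted p = 0.000215) than in MacHigh. With the prefix block Pgam1 was also lower in Kit+Sca1+ than in MacHigh (-0.35, adjusted p = 0.0249). Eno1, the main enolase of most tissues, lay between 0.001 and 2.67 FPKM in 18 of the 19 sorted libraries and at 12.9 FPKM in MacHigh replicate 2, and 4 libraries listed it at 0.001, the value that stands in place of 0.

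Gapdh, often used as a housekeeping gene, was high in the libraries of the sample name prefixes L and R in every group but Kit+Sca1+. It read between 16.5 and 25.8 FPKM (median 17.7) in the 8 libraries of the prefixes L and R outside Kit+Sca1+, against 1.91 to 6.24 FPKM (median 3.04) in the other 16 libraries. Kit+Sca1+ has no L library, and its R library read 3.08 FPKM. Every group with L and R libraries therefore split in the same way, and the F test among the sorted groups did not pass (adjusted p = 0.284). These 8 libraries were picked from the values of Gapdh, so Gapdh separates them by construction. Of all 11599 rows tested, 12 (0.103%), Gapdh included, separated the same 8 libraries from the other 16 without overlap. No other gene of the 36 was among them. With the prefix as a block, Gapdh was lower in Kit+Sca1+ than in Kit+Sca1- (-0.75, adjusted p = 0.0291), Kit-Sca1- (-1.06, adjusted p = 0.00342) and MacHigh cells (-0.81, adjusted p = 0.0230), and the lone R library of Kit+Sca1+ enters all 3 values. The cause of the split was not tested.

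**Figure D4:**
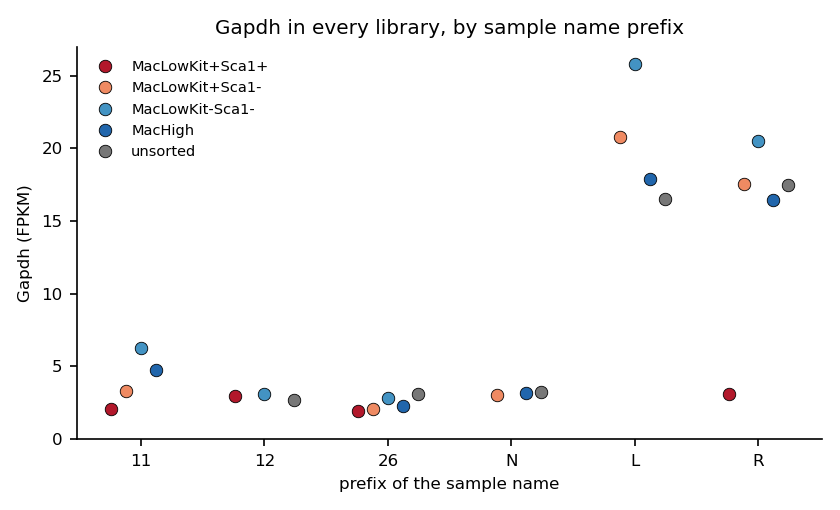
Gapdh in FPKM in each of the 24 libraries, by the prefix of the sample name on the horizontal axis and by group in colour. The 8 libraries of the prefixes L and R outside Kit+Sca1+ lie between 16.5 and 25.8 FPKM, and all other libraries, the R library of Kit+Sca1+ included, lie at 6.24 FPKM or below.

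The pentose phosphate genes were high in Kit+Sca1- cells. There 5 of the 7 were higher and none lower than in MacHigh, beside 62.8% of all rows called (32.5% higher). G6pdx and Taldo1 did not pass. G6pdx was higher with equal FPKM sums, with quantile normalization or with the prefix block (0.28, adjusted p = 0.0374). In Kit+Sca1+ cells 6 of the 7 were lower than in Kit+Sca1- cells, beside 55.2% of all rows called (28.5% lower), and Taldo1 did not pass. Their summed level ran between 864 and 1277 FPKM in Kit+Sca1+, 1806 and 2480 in Kit+Sca1-, 1232 and 1524 in Kit-Sca1- and 1184 and 1419 FPKM in MacHigh libraries, and the Kit+Sca1- libraries lay above all others. G6pdx, the enzyme that commits glucose phosphate to the pathway and makes the first NADPH, had 47.1, 61.4, 80.3 and 69.3 FPKM in Kit+Sca1+ libraries, against 162 to 296 in Kit+Sca1-, 149.6 to 198 in Kit-Sca1- and 156 to 199 FPKM in MacHigh libraries. All 4 Kit+Sca1+ libraries lay below all 15 others, by -1.44 (SE 0.16, adjusted p = 1.51e-07) against MacHigh, -1.72 (SE 0.16, adjusted p = 5.60e-09) against Kit+Sca1- and -1.50 (SE 0.16, adjusted p = 7.23e-08) against Kit-Sca1- cells. The macrophage markers summed to 1261, 1831, 688 and 1038 FPKM in the same 4 libraries, in the same order.

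Pgd, which makes the second NADPH, was low in Kit+Sca1+ cells like G6pdx and high in Kit+Sca1- cells. It read 131, 143, 260.5 and 255 FPKM in Kit+Sca1+ and 459 to 697 in Kit+Sca1-, against 332 to 461 in Kit-Sca1- and 301 to 378 FPKM in MacHigh libraries. The log2 difference from MacHigh was -0.85 (SE 0.18, adjusted p = 0.000416) in Kit+Sca1+ and 0.74 (SE 0.17, adjusted p = 0.000552) in Kit+Sca1- cells. Pgls, the lactonase between them, was higher than in MacHigh in both Kit+ groups: 135, 145, 139 and 178 FPKM in Kit+Sca1+ and 168 to 228 in Kit+Sca1-, against 98.4 to 122 FPKM in MacHigh libraries, with log2 differences of 0.47 (SE 0.10, adjusted p = 0.000347) and 0.88 (SE 0.09, adjusted p = 1.57e-08). Within the oxidative arm, G6pdx and Pgd were thus lower and Pgls higher in Kit+Sca1+ than in MacHigh cells.

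Tkt, the transketolase that links the pathway back to glycolysis, had 241, 236, 277 and 284 FPKM in Kit+Sca1+ and 498 to 705 in Kit+Sca1-, against 313 to 363 in Kit-Sca1- and 241 to 313 FPKM in MacHigh libraries. It was higher in Kit+Sca1- than in MacHigh by 1.20 (SE 0.10, adjusted p = 6.16e-10), and Kit+Sca1+ and MacHigh cells overlapped (-0.01, adjusted p = 0.961). Rpia, which makes ribose phosphate, read 40.6, 45.3, 71.5 and 76.8 FPKM in Kit+Sca1+ and 121 to 160 in Kit+Sca1-, against 43.6 to 56.9 in Kit-Sca1- and 33.6 to 50.7 FPKM in MacHigh libraries. The Kit+Sca1- libraries stood apart, by 1.78 (SE 0.14, adjusted p = 3.12e-10) from MacHigh and 1.40 (SE 0.14, adjusted p = 4.14e-08) from Kit-Sca1- cells, while the Kit+Sca1+ libraries reached from the level of MacHigh to well above it (0.52, SE 0.15, adjusted p = 0.00718). That difference had an adjusted p of 0.0600 with the 2 groups fitted alone, and of 0.0688 without the prefixes L and R. Rpe, the epimerase of the same arm, averaged 26.6 FPKM in Kit+Sca1+ cells, 57.0 in Kit+Sca1-, 30.2 in Kit-Sca1- and 29.9 in MacHigh cells. Taldo1 averaged 341, 346, 279 and 313 FPKM, and its F test did not pass (adjusted p = 0.165). With the prefix block Taldo1 was lower in Kit-Sca1- cells than in MacHigh (-0.21, adjusted p = 0.0418), and higher in Kit+Sca1+ (0.26, adjusted p = 0.0207) and in Kit+Sca1- (0.34, adjusted p = 0.00293) than in Kit-Sca1- cells.

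**Figure D5:**
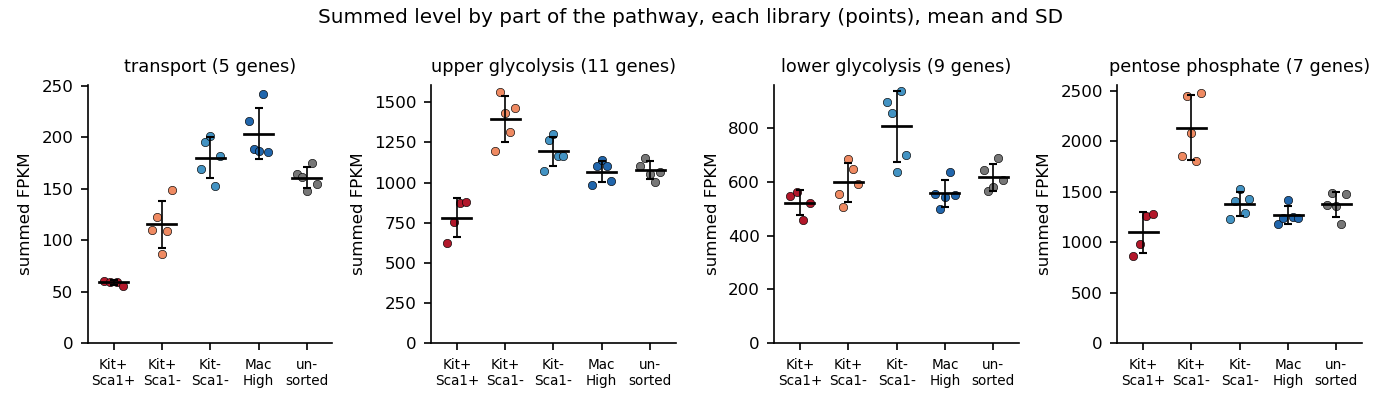
Summed FPKM of 4 parts of the pathway in each library (points), with group mean and SD. The pentose phosphate sum lies between 1806 and 2480 FPKM in Kit+Sca1- libraries and at most 1524 in the other sorted groups, the lower glycolysis sum has its highest mean in Kit-Sca1- cells, and the transporter sum lies between 56.2 and 60.6 FPKM in Kit+Sca1+ cells.

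The start of G6pdx is shown because it carries the antioxidant response core and the gene set Kit+Sca1+ cells apart, and that of Fbp1 because it carries the same core and the gene was high in both Kit+ groups. For G6pdx 30 bases around the match are given, at chrX:74428918-74428947 on the - strand, and for Fbp1 the 250 bases before the start, at chr13:62888283-62888532 on the - strand (RefSeq, GRCm38.p6). The annotated Fbp1 gene reaches to position 62888298, so the end of its stretch lies within the gene. Capitals mark TGACNNNGC on either strand.
G6pdx: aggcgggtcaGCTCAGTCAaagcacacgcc
Fbp1: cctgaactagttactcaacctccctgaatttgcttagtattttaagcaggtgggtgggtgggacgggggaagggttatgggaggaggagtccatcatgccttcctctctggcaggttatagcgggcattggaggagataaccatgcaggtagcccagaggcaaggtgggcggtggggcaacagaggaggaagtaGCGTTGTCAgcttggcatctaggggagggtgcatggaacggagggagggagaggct
Nfe2l2, which encodes the factor known to bind such elements, averaged 34.1 ± 3.49 FPKM in Kit+Sca1+ cells, 75.4 ± 9.67 in Kit+Sca1-, 69.2 ± 6.76 in Kit-Sca1- and 81.7 ± 8.08 FPKM in MacHigh cells. Like G6pdx it was lower in Kit+Sca1+ than in each other sorted group (log2 difference from MacHigh -1.24, SE 0.10, adjusted p = 1.06e-09), and Fbp1 did not share this pattern. The core was also found before Aldoa and Hk1, which shared it, and before Slc16a1, which was higher in Kit+Sca1+ than in MacHigh cells. Of the 36 genes, 19 had their lowest mean in Kit+Sca1+ cells, and the core was about as common as in all promoters (10.4% and 10.2%). The part of Nfe2l2 in these levels was not tested. Binding was not measured.

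Of the 3 genes of pyruvate dehydrogenase and its kinases, none was called in Kit+Sca1+ against MacHigh cells (46.0% of all rows called). In Kit+Sca1- cells 1 was higher than in MacHigh (62.8% of all rows called). Pdha1, the catalytic subunit gene of pyruvate dehydrogenase, averaged 53.1 FPKM in Kit+Sca1+ cells, 64.5 in Kit+Sca1-, 67.5 in Kit-Sca1- and 55.4 in MacHigh cells. Of the kinases that switch the enzyme off, Pdk3 was higher in Kit+Sca1- cells, at 45.3 ± 4.76 FPKM, than in MacHigh cells, at 29.1 ± 3.41 FPKM (0.62, SE 0.08, adjusted p = 1.13e-06). Pdk1, a kinase known as a target of hypoxia-inducible factors, averaged 13.4 FPKM in Kit+Sca1+ cells, 8.67 in Kit+Sca1-, 9.05 in Kit-Sca1- and 10.1 in MacHigh cells. With the prefix block Pdk1 was higher in Kit+Sca1+ (0.38, adjusted p = 0.0330) and Pdha1 in Kit+Sca1- cells (0.21, adjusted p = 0.0130) than in MacHigh cells. The log2 ratio of Pdk3 to Pdk1 was 1.21 in Kit+Sca1+ cells, against 2.31 in Kit+Sca1- cells, and the libraries did not overlap (exact permutation p = 0.00794, adjusted p = 0.0238).

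Other genes of the 2 pathways were listed from general knowledge, and 19 of the 32 were tested. Against MacHigh, 3 were higher and 5 lower in Kit+Sca1+ cells, 9 were higher and 3 lower of 18 with an estimate in Kit+Sca1- cells, and 6 were higher and 4 lower in Kit-Sca1- cells. Of all rows tested, 46.0%, 62.8% and 50.8% were called in these 3 comparisons, which are also those of the lists that follow. Of 18 tested regulators and targets of hypoxia-inducible factors, 3, 6 and 2 were higher and 6, 9 and 8 lower in the same 3 groups. Another 7 tested genes were the mitochondrial pyruvate carrier gene Mpc2 and other genes of pyruvate dehydrogenase and its regulation. Of these 7, none was called in Kit+Sca1+, 5 were higher and 1 lower in Kit+Sca1-, and 4 were higher in Kit-Sca1- cells. Of 7 other regulators, 2, 1 and 2 were higher and 3, 3 and 4 lower. Pkm, the pyruvate kinase gene of blood cells, resembled Aldoa: it averaged 226 ± 17.1 FPKM in Kit+Sca1+ cells, 494 in Kit+Sca1-, 462 in Kit-Sca1- and 419 in MacHigh cells, and was lower in Kit+Sca1+ than in MacHigh (-0.88, SE 0.12, adjusted p = 4.59e-06). Bsg encodes the chaperone that takes both lactate transporters to the membrane. It was listed at 0.001 in all 5 Kit+Sca1- libraries and averaged 152 FPKM in Kit+Sca1+ cells, 175 in Kit-Sca1- and 145 in MacHigh cells. The neutrophil gene S100a8 was also listed at 0.001 throughout Kit+Sca1-. Whether 0.001 there stands for absent message or for a missing value was not tested, so no fold is given. Txnip, a brake on glucose uptake, averaged 114 FPKM in Kit+Sca1+ cells, 71.2 in Kit+Sca1- and 109 in Kit-Sca1-, against 251 FPKM in MacHigh cells, and was lower in all 3 (highest adjusted p = 0.000248). Myc, known to drive Slc16a1 and Ldha in other cells, averaged 88.5, 75.6 and 75.5 FPKM in the same 3 groups, against 39.2 FPKM in MacHigh cells, and was higher in all 3 (highest adjusted p = 0.00129). Slc16a1 was higher in all 3 as well. Ldha was higher in Kit-Sca1- cells (log2 difference 0.61) and was not called in Kit+Sca1+ (0.08) or Kit+Sca1- cells (-0.02). The part of Myc in these levels was not tested. The 8 proliferation genes of a fixed list, such as Mki67 and Rrm2, were all higher in Kit+Sca1- than in MacHigh cells (62.8% of all rows called). All 8 were lower in Kit+Sca1+ than in Kit+Sca1- cells (55.2% of all rows called). Most pentose phosphate genes went the same way in these comparisons. Against MacHigh, 5 of the 8 were higher and 0 lower in Kit+Sca1+ cells, where 2 pentose phosphate genes were higher and 2 lower. In Kit-Sca1- cells 7 of the 8 proliferation genes and 2 of the 7 pentose phosphate genes were higher than in MacHigh. The part of cell division in those levels was not tested.

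The mean of the unsorted libraries lay within the range of the 4 sorted means for all of the 36 genes but Bpgm, Pfkm, Hk1 and Slc16a1. Bpgm, the mutase that makes bisphosphoglycerate in red cells, was the clearest exception: it lay between 5.48 and 8.10 FPKM in all 19 sorted libraries and its F test did not pass (adjusted p = 0.627), against 14.4, 12.7, 7.61, 20.2 and 7.18 FPKM in unsorted replicates 1 to 5. The 11 measured erythroid markers summed to 1049, 745, 358, 2142 and 370.1 FPKM in those 5 libraries, in the same order, against at most 103 FPKM in any sorted library. Pfkm and Hk1 were also highest in unsorted replicate 4, at 23.98 and 84.1 FPKM, against 7.96 to 11.5 and 46.9 to 67.0 FPKM in the other unsorted libraries. The part of red cell precursors in these levels was not tested.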

How the data were processed

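The authors deposited 1 table of FPKM with 23361 gene rows and a column for each of the 24 libraries. The submitters' processing notes name TopHat2 2.0.4, Cuffdiff and the mouse build mm10. The Cuffdiff version, the gene annotation and the treatment of fragments that map to several genes are not given in the sources used here. Read counts were not analysed here, so depth and counting error are unknown. No value is 0, and 0.001 stands in its place, although 216 values lie below 0.001. Whether 0.001 also marks missing values cannot be told from the values.

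Values were transformed to log2(FPKM + 1), and a row entered the tests if 4 libraries or more reached 1 FPKM, which left 11599 rows and all 36 members. One linear model of the 5 groups was fitted with limma 3.58.1 (R 4.3.3, trended variance), with Benjamini-Hochberg adjustment over all rows within each of 6 comparisons. Ratios between genes of a step were tested with exact two-sided permutation tests (scipy 1.17.1), adjusted over 72 tests. The procedure was tested on simulated data. Genes described by rule are those with the largest F statistics and the most abundant gene of each step; others are named to complete a step. The members, lists and tests were chosen with earlier results of these data known.

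Sample names carry 6 prefixes that recur across groups, whose meaning is not given. Libraries of the same prefix deviated together, with every pair's correlation of deviations from the group means over 0.1, in 4 of the 6 comparisons. The exceptions were Kit+Sca1+ against MacHigh (lowest pair 0.0477) and Kit+Sca1- against MacHigh (lowest pair -0.049). A fit with the prefix as a block is given where it changes a call. Alternatives were other pseudocounts, filters and scalings, library weights, both blocks, fewer groups and leaving out each library. Fits without the prefixes L and R, or with them alone, were chosen after seeing the data. Promoters and shared sequence come from RefSeq and GENCODE tables of GRCm38.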

Additional observations from a re-analysis of the deposited data

Results flagged for a closer look

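In 11 of 180 tests, each of a gene within a group of 4 or 5 libraries, a single library stood apart from the others; chance alone gives about 1 in 20. Among unsorted cells replicate 4 was high for Slc2a1, at 26.9 FPKM against 21.5 to 22.6 in the others, and for Pfkm, at 23.98 FPKM against 7.96 to 11.5. Among Kit+Sca1+ libraries Pfkp was high in replicate 3, at 48.6 FPKM against 45.1 to 45.5, and Pgam1 in replicate 4, at 15.4 FPKM against 10.2 to 11.0. Aldoc was high in Kit+Sca1- replicate 5, at 2.63 FPKM against 0.854 to 1.303. Among Kit-Sca1- libraries Eno1 was high in replicate 4, at 2.59 FPKM against 0.394 to 1.03, Eno3 in replicate 5, at 22.3 FPKM against 11.7 to 14.4, and Pgls was low in replicate 3, at 99.0 FPKM against 117 to 123. Among MacHigh libraries Eno1 was high in replicate 2, at 12.9 FPKM against 0.001 to 0.459, Tkt in replicate 3, at 313 FPKM against 241 to 256, and Pfkl was low in replicate 1, at 34.9 FPKM against 51.5 to 55.8.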

How the results depend on the processing

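Of 127 calls of a member in a comparison, 15 were lost when some single library was left out, 10 with equal FPKM sums, 8 under quantile normalization, 8 with only the compared groups fitted, 6 without the filter and 17 without the prefixes L and R. The replicate block by prefix lost none and gained 23, and gave 23, 24, 19, 30, 28 and 26 members called in the 6 comparisons in the order of the report. Aldoa in Kit+Sca1- against MacHigh was -0.05, and 0.19 under quantile normalization and 0.28 with equal FPKM sums, where the median of all rows moved to 0.14 and 0.32. With the prefixes L and R alone, 2 libraries a group, 2 members were called in Kit-Sca1- against MacHigh, and 3853, 1136 and 1921 of all rows in Kit+Sca1- against MacHigh, Kit-Sca1- against MacHigh and Kit+Sca1- against Kit-Sca1-. Of all rows, equal FPKM sums gave 3031 higher and 1793 lower in Kit+Sca1+ against MacHigh, 5864 and 2307 in Kit+Sca1- against MacHigh, 2210 and 4658 in Kit+Sca1+ against Kit+Sca1-, and 4280 and 1708 in Kit+Sca1- against Kit-Sca1-. Of the ratio tests, 36 passed, between 19 and 27 with a library left out, and 0 in pairs that share a prefix, where the exact permutation test of 3, 4 or 5 pairs cannot go below p = 0.25, 0.125 or 0.0625. The cause was not tested, beyond the smaller number of libraries.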

Other observations

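The 8 libraries of the prefixes L and R outside Kit+Sca1+ were picked from the values of Gapdh. Gapdh is therefore by construction among the 12 rows that separated them from the other 16 libraries. These rows also included the ribosomal protein genes Rpl12, Rpl36 and Rps23 and the ubiquitin-like fusion gene Fau. Gps1, Usmg5, A730098P11Rik, Gm6793, Rps15a-ps6 and Gm6251 were among them as well. Of the 12 rows, 11 were higher and 1, Gm6251, was lower in the 8 libraries. Rps23 read between 96.1 and 138.9 FPKM in the 8 libraries, against 3.32 to 32.9 FPKM in the others. The cause was not tested.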
